A study of Homo sapiens with 6 samples.

Results

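The aminoacyl-tRNA synthetases are the enzymes that load each transfer RNA (tRNA) with its amino acid. They were followed here with the scaffold proteins that hold some of the cytosolic enzymes together. The 38 genes were taken by name: 19 cytosolic synthetase genes (names ending in 1, A or B), 16 mitochondrial ones (names ending in 2), and the scaffold genes AIMP1, AIMP2 and EEF1E1. Of these 38, 35 had a probe named for them in the platform annotation, among 20046 named genes in all, and 33 were measured, 18 cytosolic and 15 mitochondrial. CARS1, AIMP2 and EEF1E1 are not analysed here. AIMP1 and WARS2 each had a named probe that passed the detection threshold on 0 of 6 arrays.

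RNA is labelled as coming from the human hepatocellular carcinoma line Huh7, exposed for 24 h either to the solvent DMSO or to sorafenib. Sorafenib is a liver cancer drug that inhibits RAF and several growth factor receptor kinases. Each group had 3 samples, hybridised to Illumina expression beadchips, and the sample labels write the sorafenib dose as 3 mM. Nothing states whether the 3 samples of a group were separate cultures, so the p-values cover array-to-array spread that may be technical. In RNA from a whole culture, a lower level per cell and fewer cells with the transcript cannot be told apart.

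The same 6 samples carry a pair of deposited data sets that did not behave as the same arrays. Across all probes, the Spearman correlation between a sample's own columns in the files of raw signals and in the value table was 0.848 to 0.863. Between different samples across the sets it was 0.846 to 0.863, and within a set 0.923 to 0.942, in both cases a description across probes. The gene for the surface protein CD81 passed the detection threshold on 0 of 6 arrays in the signal files and lay at 14.22 to 14.39 on the log2 scale in the value table. SLC2A3, a glucose transporter gene, lay at 14.62 to 15.03 in the signals without background correction and at 6.52 to 6.72 in the value table. The hepatocyte genes ALB and AFP were high in both, whereas the fibrinogen gene FGB lay at 7.37 to 7.85 and 14.33 to 14.55. Of 9 hepatocyte genes 3 rose and 2 fell on the signal arrays. The largest called log2 changes there were TF at 0.61, APOB at -0.53, APOA1 at 0.48 and SERPINA1 at 0.40. In the value table GPC3 rose by 0.49 and APOB fell by 0.21. The shares called were 55.6% on the signal arrays, where 31.0% of all genes were called, and 22.2% in the value table, near the 19.5% of all genes. Which set came from Huh7 cells was not settled. One set is called the signal arrays here and the other the value-table arrays, and each was tested within its own normalization. Arrays of the signal set had 16476 to 17476 detected probes. Of 10 marker genes of immune, endothelial and stromal cells with a named probe, 8, among them PTPRC, CDH5 and COL1A1, passed the detection threshold on 0 of 6 signal arrays. CD14, an immune marker, was detected there on 3 DMSO and 3 sorafenib arrays (log2 change -0.23, limma adjusted p = 0.113). The summed level of all 10 on the linear scale was 680 to 728 with DMSO and 612 to 619 with sorafenib in the signals. In the value table it was 2060 to 2490 and 2010 to 2240. Among the 10 markers PDGFRB was not kept in the value table, with means of 7.23 with DMSO and 7.28 with sorafenib. On the signal arrays 3 DMSO arrays and 0 sorafenib arrays detected it, so it was kept through the DMSO group alone. Its levels there were 6.17, 6.58 and 6.43 with DMSO and 5.32, 5.09 and 5.31 with sorafenib. The detection level was 5.98 to 6.18, so the size of this difference depends on that floor and is not read as a result. PECAM1, listed at 0 of 6 detected there, lay at 9.12 to 9.88 in the value table, with a log2 change of -0.34 (limma adjusted p = 0.108, and 0.00265 as lower with the replicate number as a block). The part of these marker levels in the results was not tested.

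Each synthetase activates its amino acid with ATP and passes it to the matching tRNA, so that the ribosome receives the right residue for each codon. Mitochondria translate their own few messages and use a largely separate set of synthetases, also encoded in the nucleus. GARS1 and KARS1 are exceptions, since each encodes both the cytosolic and the mitochondrial enzyme. When amino acids run short, uncharged tRNA activates the kinase GCN2 (EIF2AK4), which favours translation of the transcription factor ATF4. ATF4 raises many genes of amino acid supply, including a set of the cytosolic synthetase genes, through a composite C/EBP-ATF element in or near their promoters. The 13 cytosolic genes taken here as known to respond to ATF4, called the ATF4 list, are AARS1, CARS1, EPRS1, GARS1, IARS1, LARS1, MARS1, NARS1, SARS1, TARS1, VARS1, WARS1 and YARS1. The other 6 are FARSA, FARSB, HARS1, KARS1, QARS1 and RARS1.

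The element, written TGATGNAA and on the other strand TTNCATCA, was sought on both strands of RefSeq promoters (250 bases before to 50 after each annotated start, build GRCh38.p14). Any start site of a gene was allowed to carry it. A matching stretch stood in 7 of the 10 ATF4-list genes with a promoter in the table and in 0 of the 6 other cytosolic genes. Among the mitochondrial genes it stood in 1 of 14, YARS2. Over all 27305 genes of the table the share was 4.46%. The ATF4 list was chosen from background knowledge and with earlier results of these data known. The split of matches between the lists is therefore a description and does not test the list. LARS1, VARS1, YARS1 and VARS2 had no entry. The windows below show all 8 matches among the members; CARS1 has no level here, and the levels of the other 7 follow. Each runs 5′ to 3′ along the gene, with the element in capitals and 16 bases on each side.
AARS1, chr16:70289670-70289709, minus strand: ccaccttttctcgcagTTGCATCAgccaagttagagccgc
CARS1, chr11:3057402-3057441, minus strand: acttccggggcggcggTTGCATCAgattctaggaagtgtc
GARS1, chr7:30594829-30594868, plus strand: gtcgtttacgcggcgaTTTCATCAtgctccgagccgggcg
IARS1, chr9:92293687-92293726, minus strand: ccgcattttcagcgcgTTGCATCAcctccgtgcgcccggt
MARS1, chr12:57488048-57488087, plus strand: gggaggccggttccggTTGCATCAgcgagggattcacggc
NARS1, chr18:57621799-57621838, minus strand: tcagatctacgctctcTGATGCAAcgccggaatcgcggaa
TARS1, chr5:33440951-33440990, plus strand: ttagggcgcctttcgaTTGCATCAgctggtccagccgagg
YARS2, chr12:32756071-32756110, minus strand: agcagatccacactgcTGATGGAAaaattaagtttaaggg
In 6 of the windows the letters are TTGCATCA or its reverse complement, while GARS1 has TTTCATCA and YARS2 TGATGGAA. The element began within 40 bases of the annotated start in all but AARS1 and YARS2, where it began at positions -187 and -197. A match of letters is not a binding site, and no binding was measured in these samples.

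Most cytosolic synthetase genes rose with sorafenib on the value-table arrays, and 1 mitochondrial gene was called, as lower. A call is a limma adjusted p under 0.05 over all kept probes. Of 18 cytosolic genes 10 rose, 3 fell and 5 did not pass, with a median log2 change of 0.30, while 19.5% of all 10595 genes were called, 11.3% higher and 8.17% lower. Of 15 mitochondrial genes 0 rose, 1 fell and 14 did not pass, with a median of -0.02; 2 of the 15 had an unadjusted p under 0.05, and with the replicate number as a block the counts were also 0 and 1, where 34.6% of all genes were called, 19.1% higher and 15.5% lower. Every gene that rose was on the ATF4 list, where 10 of 12 measured genes rose and 1 fell (median 0.38). Of the 6 cytosolic genes off that list, 0 rose and 2 fell (median -0.13). The list was chosen with earlier results of these data known, so this split is a description only. The median over all genes was 0.01. The count that fell, 3 cytosolic genes, was 1 without DMSO replicate 1, sorafenib replicate 1 or sorafenib replicate 2.

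**Figure D1:**
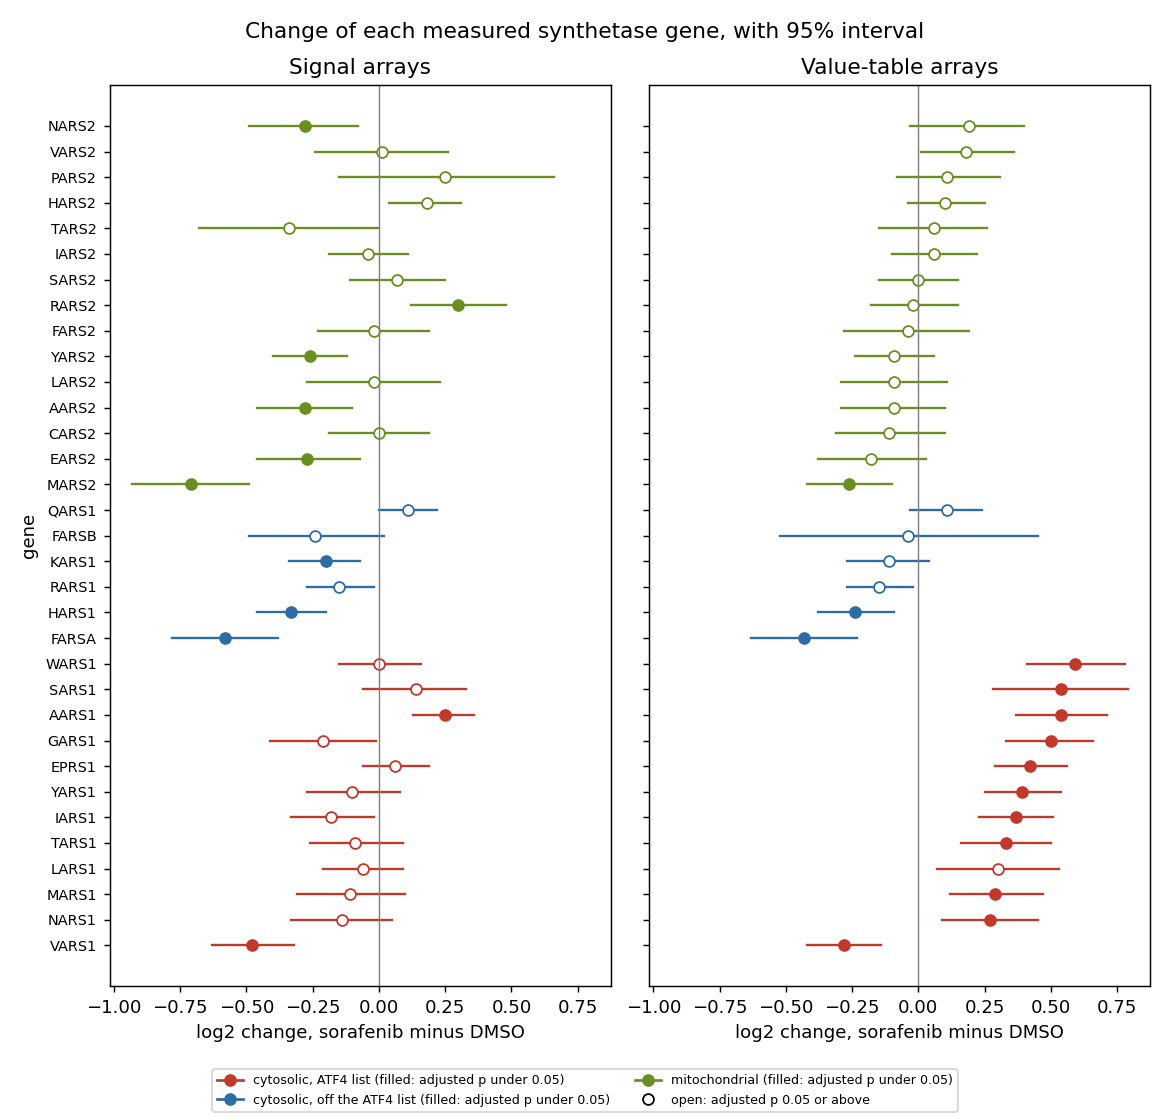
Log2 change (sorafenib minus DMSO, x axis) with its 95% interval for each of the 33 measured genes (y axis), on the signal arrays (left) and the value-table arrays (right), with 3 arrays per group. Colours mark cytosolic genes on the ATF4 list, other cytosolic genes and mitochondrial genes; 10 of 12 ATF4-list genes lie to the right as calls on the value-table arrays and 1 of 12 on the signal arrays.

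WARS1, the tryptophan enzyme, which interferon is also known to induce, had the largest rise among the members. Its log2 level on the value-table arrays was 10.88, 10.77 and 10.81 with DMSO and 11.54, 11.43 and 11.27 with sorafenib. All 3 sorafenib arrays lay above all DMSO arrays, and the gene rose 1.51-fold (log2 change 0.59, SE 0.08, limma adjusted p = 0.0026). Its second kept probe rose as well (log2 change 0.51, adjusted p = 0.00429). The promoters at its annotated starts are shown since it had the largest change in this set, and neither holds a TGATGNAA match.
WARS1, chr14:100376278-100376577, minus strand: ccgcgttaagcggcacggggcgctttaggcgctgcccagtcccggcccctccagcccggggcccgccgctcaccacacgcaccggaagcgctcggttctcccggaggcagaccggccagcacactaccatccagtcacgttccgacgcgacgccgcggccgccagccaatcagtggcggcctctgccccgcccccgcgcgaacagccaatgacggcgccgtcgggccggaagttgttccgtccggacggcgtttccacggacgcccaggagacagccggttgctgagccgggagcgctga
WARS1, chr14:100375298-100375597, minus strand: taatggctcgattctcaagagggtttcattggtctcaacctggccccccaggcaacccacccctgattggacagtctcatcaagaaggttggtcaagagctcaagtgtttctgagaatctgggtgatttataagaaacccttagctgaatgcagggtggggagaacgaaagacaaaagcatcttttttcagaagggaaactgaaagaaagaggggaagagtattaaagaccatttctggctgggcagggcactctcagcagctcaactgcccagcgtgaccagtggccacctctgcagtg
AARS1, the alanine enzyme, went from 14.32, 14.48 and 14.21 to 14.92, 14.92 and 14.78. Again the groups did not overlap (1.45-fold, SE 0.08, adjusted p = 0.00283). SARS1, the serine enzyme, went from 9.59, 9.22 and 9.36 to 10.02, 10.01 and 9.75, a rise of 1.45-fold with a wider error (SE 0.11, adjusted p = 0.0143). GARS1, which supplies glycyl-tRNA to cytosol and mitochondria, went from 12.69, 12.75 and 12.73 to 13.32, 13.27 and 13.07. This rise was 1.41-fold (SE 0.07, adjusted p = 0.00328), with sorafenib replicate 3 the lowest of the treated arrays.

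The rises of EPRS1, YARS1 and IARS1 were smaller and as tight. EPRS1, a fused enzyme for glutamate and proline, went from 13.12, 13.28 and 13.18 to 13.63, 13.64 and 13.58 (log2 change 0.42, SE 0.06, limma adjusted p = 0.00289). YARS1, for tyrosine, went from 12.66, 12.74 and 12.61 to 13.15, 13.05 and 12.98 (log2 change 0.39, adjusted p = 0.00512). IARS1, for isoleucine, went from 12.37, 12.41 and 12.32 to 12.78, 12.80 and 12.64 (log2 change 0.37, adjusted p = 0.00627). In none of the 3 genes did the groups overlap. TARS1, for threonine, went from 10.77, 10.70 and 10.64 to 11.15, 10.98 and 10.96 (log2 change 0.33, adjusted p = 0.0184). MARS1, for methionine, went from 11.98, 11.97 and 11.82 to 12.27, 12.30 and 12.08 (log2 change 0.29, adjusted p = 0.0314). The groups of TARS1 and MARS1 were also apart, MARS1 by a narrower margin. NARS1, for asparagine, went from 11.87, 12.07 and 12.05 to 12.33, 12.14 and 12.33 (log2 change 0.27, adjusted p = 0.0434), and its sorafenib replicate 2 lay close to the DMSO arrays. LARS1, for leucine, had a log2 change of 0.30 with overlapping groups (adjusted p = 0.0713) and was called with the replicate block (adjusted p = 0.00156).

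How firmly these rises stood differed between genes. AARS1, EPRS1, GARS1, IARS1, WARS1 and YARS1 stayed past the threshold in all 11 alternative fits of the value table, those that left out 1 array included. The count of cytosolic genes that rose dropped from 10 to 6 without sorafenib replicate 1. MARS1 and NARS1 each held in 1 of the 6 fits without 1 array, and TARS1 and SARS1 in 4. Averaged over the 12 ATF4-list genes, the 3 sorafenib arrays stood 0.43, 0.38 and 0.26 log2 units above the DMSO mean, and the DMSO arrays between -0.04 and 0.03. Sorafenib replicate 3 was thus the lowest of the treated arrays, and it was above every DMSO array.

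**Figure D2:**
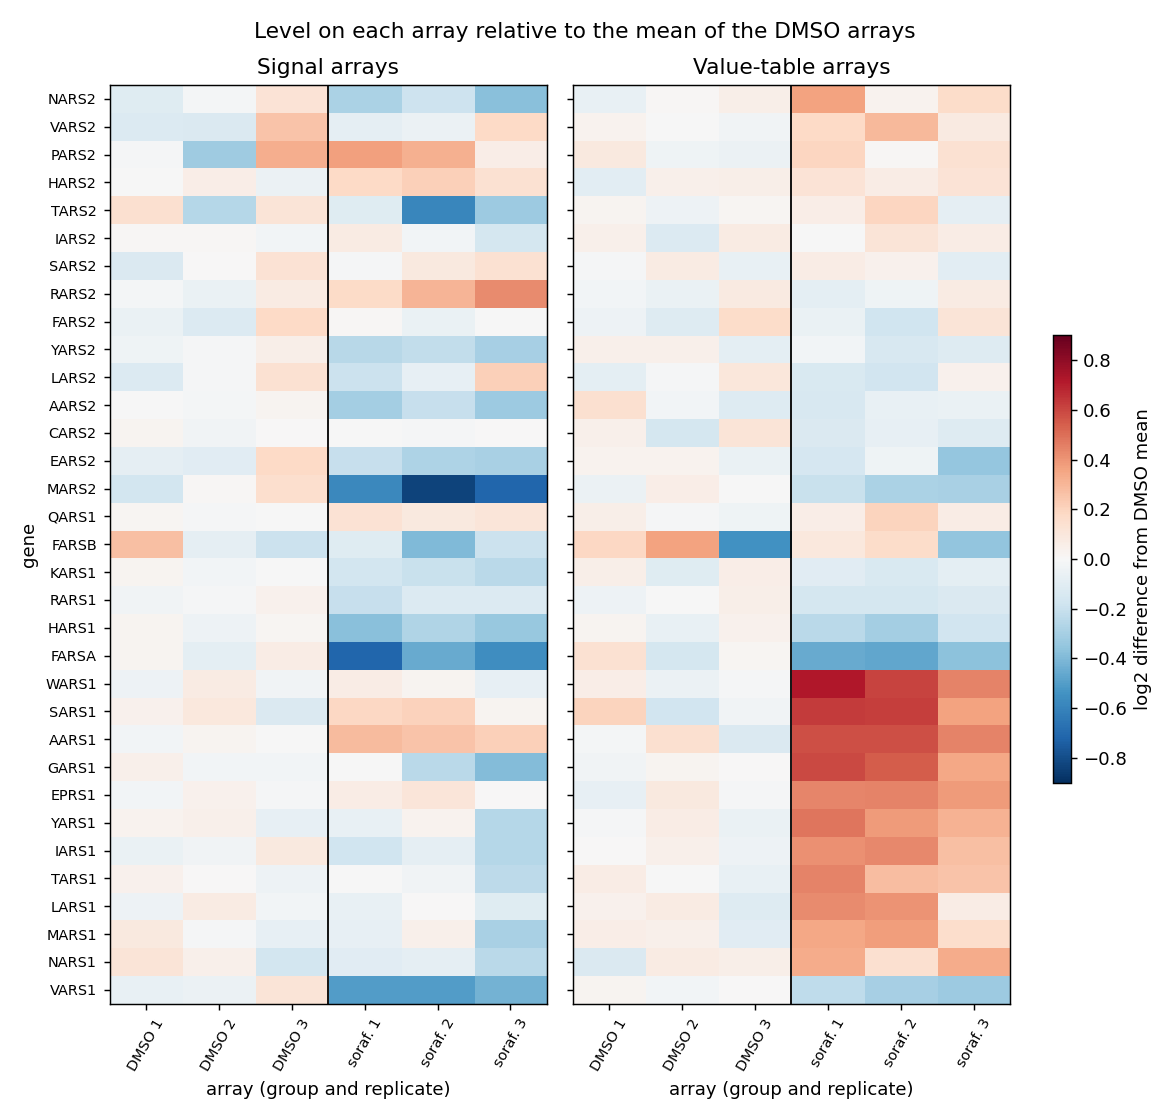
Log2 level of each measured gene (rows) on each array (columns: group and replicate), relative to the mean of that gene's 3 DMSO arrays, for the signal arrays (left) and the value-table arrays (right). The block of red in the lower right is made of the ATF4-list genes on the sorafenib value-table arrays; VARS1 below it and HARS1 and FARSA above it are blue on the sorafenib arrays of both sets.

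On the signal arrays the cytosolic genes did not rise as a group. Of 18, 1 rose, 4 fell and 13 did not pass, with a median log2 change of -0.13. Of all 10523 genes there, 31.0% were called, 16.8% higher and 14.2% lower. The 11 called members, 33.3% of 33, were close to the share called in either direction among all genes. By direction, 2 members were higher and 9 lower. Pairing the arrays by replicate number moved the cytosolic count that fell from 4 to 7 by adding FARSB (adjusted p = 0.0183), GARS1 (0.0218) and RARS1 (0.036). With that block 44.0% of all genes were called, 22.5% higher and 21.5% lower, against 3 members higher and 13 lower. AARS1 was the gene that rose, from 13.65, 13.70 and 13.67 to 13.96, 13.93 and 13.89. The groups were apart by more than their spread (1.19-fold, log2 change 0.25, SE 0.05, limma adjusted p = 0.0066).

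The other 11 measured ATF4-list genes either fell or did not pass on the signal arrays. WARS1 was level, at 11.29, 11.41 and 11.30 with DMSO and 11.40, 11.36 and 11.26 with sorafenib (log2 change 0.00, 95% interval -0.15 to 0.16, limma adjusted p = 0.989). That interval lies wholly below the one on the value-table arrays, 0.41 to 0.78, although the difference between the sets was not tested. GARS1 went from 13.21, 13.14 and 13.14 to 13.16, 12.92 and 12.77 (log2 change -0.21, adjusted p = 0.115), with sorafenib replicate 1 inside the DMSO range. IARS1 went from 12.39, 12.42 and 12.54 to 12.27, 12.37 and 12.19 (log2 change -0.18, adjusted p = 0.0917). Its sorafenib arrays were all below its DMSO arrays, the reverse of the order on the value-table arrays. EPRS1 lay at 12.94, 13.00 and 12.95 with DMSO and 13.03, 13.07 and 12.97 with sorafenib (log2 change 0.06, 95% interval -0.06 to 0.19). SARS1 lay at 10.38, 10.44 and 10.21 and then 10.53, 10.55 and 10.37 (log2 change 0.14, interval -0.06 to 0.33). The groups of both overlapped, with positive differences.

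The remaining 4 genes that rose in the value table had small negative differences on the signal arrays. YARS1 lay at 12.83, 12.84 and 12.72 with DMSO and 12.73, 12.83 and 12.54 with sorafenib (log2 change -0.10). MARS1 lay at 11.51, 11.41 and 11.35 and then 11.35, 11.47 and 11.13 (log2 change -0.11). Their groups overlapped, and sorafenib replicate 3 was the lowest array of each. TARS1 lay at 10.88, 10.85 and 10.80 with DMSO and 10.84, 10.81 and 10.61 with sorafenib (log2 change -0.09). NARS1 lay at 12.30, 12.23 and 12.02 and then 12.08, 12.10 and 11.94 (log2 change -0.14). These groups overlapped as well, again with sorafenib replicate 3 the lowest, and the limma adjusted p of the 4 genes ran from 0.244 for NARS1 to 0.465 for TARS1. In all 12 ATF4-list genes the log2 change was higher on the value-table arrays than on the signal arrays, by 0.20 to 0.71, set side by side across separate normalizations.

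**Figure D3:**
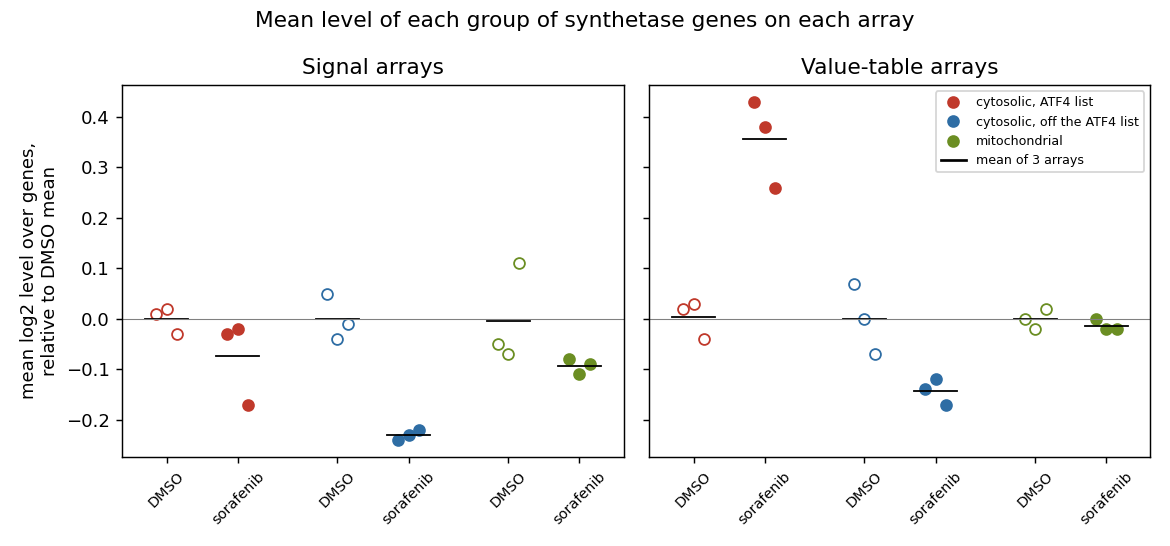
Mean log2 level over the genes of each group on each array (points, y axis), relative to the mean of the 3 DMSO arrays, for ATF4-list, other cytosolic and mitochondrial genes (12, 6 and 15 genes), by treatment (x axis); bars mark the mean of 3 arrays. The ATF4-list points at 0.26 to 0.43 on the value-table arrays stand apart, and the other cytosolic genes lie between -0.24 and -0.12 with sorafenib in both sets.

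FARSA, VARS1, HARS1 and the mitochondrial MARS2 fell in both sets. FARSA encodes the alpha subunit of the cytosolic phenylalanine enzyme, a tetramer with the FARSB product. On the signal arrays FARSA went from 10.12, 10.01 and 10.16 to 9.38, 9.64 and 9.54, a fall of 1.5-fold (SE 0.09 in log2 units, limma adjusted p = 0.00165). Its value-table levels went from 10.52, 10.22 and 10.40 to 9.93, 9.91 and 10.01 and fell 1.35-fold (adjusted p = 0.0128; 0.0504 without sorafenib replicate 1). The groups were apart in both sets. FARSB, the beta subunit, had wide replicates and did not pass in either, with log2 changes of -0.24 (95% interval -0.49 to 0.02) and -0.04 (-0.52 to 0.45). With the replicate block FARSB was called lower on the signal arrays (limma adjusted p = 0.0183). Of its value-table arrays, DMSO replicate 3 and sorafenib replicate 3 were both low, at 13.82 and 14.01 against 14.46 to 14.73 on the other 4.

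VARS1 encodes the valine enzyme, which is known to sit in a complex with elongation factor eEF1 and not in the multisynthetase complex. It was the ATF4-list gene that fell. Its levels went from 12.11, 12.12 and 12.29 to 11.67, 11.67 and 11.75 on the signal arrays (1.39-fold, SE 0.07, limma adjusted p = 0.00117). Those of the value table went from 11.85, 11.80 and 11.83 to 11.60, 11.53 and 11.50 (1.21-fold, adjusted p = 0.0153), a call lost without DMSO replicate 1 or sorafenib replicate 2. The groups did not overlap in either set. A second VARS1 probe was detected on no signal array.

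HARS1, the histidine enzyme, went from 12.79, 12.72 and 12.78 to 12.39, 12.49 and 12.42 on the signal arrays (1.26-fold lower, limma adjusted p = 0.00288). Its levels on the other set went from 11.94, 11.85 and 11.95 to 11.67, 11.61 and 11.74 (1.18-fold lower, adjusted p = 0.0345), a call that held in 2 of the 6 fits without 1 array. HARS2, its mitochondrial counterpart, starts 85 bases away on the other strand and had positive changes. Its levels were 11.80, 11.86 and 11.75 with DMSO and 11.98, 12.02 and 11.94 with sorafenib on the signal arrays (log2 change 0.18, adjusted p = 0.0616, but 0.0229 with the replicate block). Its log2 change in the value table was 0.10 (adjusted p = 0.31). The HARS1 promoter is shown because 184 of its 300 bases, in capitals, are also part of the HARS2 promoter window, and it held no TGATGNAA match.
HARS1, chr5:140691321-140691620, minus strand: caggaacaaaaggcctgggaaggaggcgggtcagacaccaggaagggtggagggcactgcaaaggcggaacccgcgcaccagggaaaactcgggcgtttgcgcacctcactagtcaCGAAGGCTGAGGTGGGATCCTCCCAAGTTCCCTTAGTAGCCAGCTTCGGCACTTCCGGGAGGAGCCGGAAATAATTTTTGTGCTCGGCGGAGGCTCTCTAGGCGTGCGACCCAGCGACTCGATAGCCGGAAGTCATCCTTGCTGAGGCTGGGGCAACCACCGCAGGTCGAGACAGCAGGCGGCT
The difference between the changes of HARS1 and HARS2 was not tested, and their levels come from separate probes.

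Of the remaining cytosolic genes, KARS1 fell by a small step on the signal arrays. This lysine enzyme serves both compartments and is a core part of the multisynthetase complex. Its levels there were 11.69, 11.64 and 11.66 with DMSO and 11.50, 11.46 and 11.42 with sorafenib (log2 change -0.20, limma adjusted p = 0.0336), and the call was lost in 5 of the 6 fits that left out 1 array. For the value table, KARS1 went from 11.66, 11.50 and 11.67 to 11.51, 11.47 and 11.52 (log2 change -0.11, adjusted p = 0.295), with overlapping groups. RARS1, for arginine, had a log2 change of -0.15 in both sets (adjusted p = 0.0792 and 0.0965), and with the replicate block it fell in both (0.036 and 0.046). QARS1, for glutamine, had a log2 change of 0.11 in both and passed in neither.

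The multisynthetase complex is a cytosolic assembly of several synthetases on the scaffold proteins AIMP1, AIMP2 and EEF1E1. Of its 7 measured synthetase genes, EPRS1, IARS1 and MARS1 rose on the value-table arrays and 0 fell (median log2 change 0.29), while outside the complex 7 of 11 cytosolic genes rose and 3 fell (median 0.33). Of the same 7, KARS1 fell on the signal arrays and 0 rose; 3 of the 7 had an unadjusted p under 0.05. The share called, 14.3%, compares with 31.0% of all genes there, and the 42.9% called in the value table with 19.5%. The scaffold side gave no value: AIMP1 lay at 4.85, 4.94 and 4.92 with DMSO and 4.85, 4.99 and 5.11 with sorafenib on the signal arrays, below the detection level of 5.98 to 6.18. Its value-table levels, 6.67, 6.73 and 6.66 and then 6.76, 6.71 and 6.74, were under the filter level of 7.40. Synthetases fall into 2 structural classes of catalytic domain. The rises of the value table took in 4 of 8 cytosolic class I genes and 5 of 9 class II genes, and EPRS1, which holds one of each, while 1 class I gene and 2 class II genes fell.

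On the signal arrays more mitochondrial genes fell than rose. There 1 of 15 rose, 5 fell and 9 did not pass, with a median log2 change of -0.02. The 6 of 15 called (40%) compare with 31.0% of all genes, 16.8% higher and 14.2% lower. MARS2, the mitochondrial methionine enzyme, went from 11.08, 11.26 and 11.40 to 10.67, 10.41 and 10.53. All sorafenib arrays were lower, and its fall of 1.63-fold was the largest change of any member (log2 change -0.71, SE 0.10, limma adjusted p = 0.000826). MARS2 in the value table went from 10.32, 10.43 and 10.37 to 10.17, 10.09 and 10.08 (1.2-fold lower, adjusted p = 0.0355). That second call, the single mitochondrial one of the set, was lost in each of the 6 fits that left out 1 array. A weaker MARS2 probe was detected on 2 of 3 DMSO and 0 of 3 sorafenib signal arrays. It was not kept in either set and so not tested. Its signal-array groups overlapped near the detection level, and its value-table means were 7.17 with DMSO and 7.09 with sorafenib. The MARS2 promoter, shown because this gene had the largest change of all members, holds no TGATGNAA match.
MARS2, chr2:197705119-197705418, plus strand: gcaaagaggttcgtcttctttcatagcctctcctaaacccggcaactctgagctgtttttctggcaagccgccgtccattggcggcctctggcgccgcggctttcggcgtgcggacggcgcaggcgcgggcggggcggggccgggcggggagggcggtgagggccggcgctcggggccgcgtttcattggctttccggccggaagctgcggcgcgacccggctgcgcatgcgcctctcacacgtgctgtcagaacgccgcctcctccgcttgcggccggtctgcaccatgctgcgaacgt

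YARS2, for tyrosine, held its fall on the signal arrays in all 15 alternative fits. It went from 11.89, 11.92 and 11.98 to 11.68, 11.71 and 11.63 (log2 change -0.26, SE 0.06, limma adjusted p = 0.0128). On the value-table side it went from 11.98, 11.98 and 11.85 to 11.91, 11.79 and 11.82, with overlapping groups (log2 change -0.09, adjusted p = 0.379). AARS2, for alanine, went from 9.60, 9.59 and 9.63 to 9.30, 9.40 and 9.28 on the signal arrays (log2 change -0.28, adjusted p = 0.0289). EARS2 charges mitochondrial tRNAs with glutamate, including the glutamine tRNA that is then amidated. It went from 10.93, 10.91 and 11.19 to 10.80, 10.73 and 10.72 there (log2 change -0.27, adjusted p = 0.0468). NARS2, for asparagine, went from 9.84, 9.93 and 10.07 to 9.66, 9.76 and 9.57 (log2 change -0.28, adjusted p = 0.0433). The groups were apart in all 3, but each call held in 1 of the 6 fits without 1 array, and the count of mitochondrial genes that fell was 2 in the fits that lacked DMSO replicate 2, DMSO replicate 3, sorafenib replicate 1 or sorafenib replicate 3, and 3 without sorafenib replicate 2. In the value table AARS2 lay at 10.01, 9.84 and 9.75 with DMSO and 9.72, 9.80 and 9.81 with sorafenib (log2 change -0.09). EARS2 lay at 10.20, 10.20 and 10.11 and then 10.02, 10.13 and 9.82 (log2 change -0.18), and NARS2 at 9.88, 9.96 and 10.00 and then 10.31, 9.98 and 10.11 (log2 change 0.19). All 3 had overlapping groups and did not pass.

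RARS2, for arginine, was the mitochondrial gene that rose on the signal arrays. Its levels were 11.33, 11.29 and 11.42 with DMSO and 11.52, 11.65 and 11.77 with sorafenib (log2 change 0.30, SE 0.08, limma adjusted p = 0.0199). The groups were apart, and the call was lost without DMSO replicate 2, sorafenib replicate 2 or sorafenib replicate 3. Its value-table levels overlapped, at 11.04, 11.01 and 11.15 with DMSO and 10.98, 11.03 and 11.14 with sorafenib (log2 change -0.02, 95% interval -0.18 to 0.15). With the replicate block HARS2 also rose on the signal arrays and TARS2, for threonine, fell (log2 change -0.34, adjusted p = 0.133 without and 0.0129 with the block). CARS2, FARS2, IARS2, LARS2, SARS2, VARS2 and PARS2 passed in neither set, with log2 changes between -0.11 and 0.25.

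For 11 amino acids the measured cytosolic and mitochondrial genes have names alike but for the final digit, such as AARS1 and AARS2. Each of these 11 pairs can be set side by side. In the value table the cytosolic change was above the mitochondrial one in 8 pairs and below it in 3, HARS, RARS and VARS, with a median difference of 0.31 on the log2 scale. The alanine pair differed most, with 0.54 for AARS1 and -0.09 for AARS2. The split on the signal arrays was 6 and 5, with a median difference of 0.06 and a range of -0.51 to 0.60. The methionine pair stood at the upper end there, because MARS2 fell while MARS1 had a log2 change of -0.11. Phenylalanine (FARSA and FARSB beside FARS2) and glutamate and proline (EPRS1 beside EARS2 and PARS2) also had measured genes of both kinds. They are not among the 11 pairs. Their value-table log2 changes were -0.43 and -0.04 beside -0.04, and 0.42 beside -0.18 and 0.11. On the signal arrays they were -0.58 and -0.24 beside -0.02, and 0.06 beside -0.27 and 0.25. Genes are not replicates, and no test was made over the pairs.

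The calls of the sets overlapped in part. Of 11 members called on the signal arrays and 14 on the value-table arrays, 5 were called in both and in the same direction: FARSA, VARS1, HARS1 and MARS2 lower and AARS1 higher. This is 45.5% of the first list and 35.7% of the second. Without the replicate block, 0 members were called in opposite directions. Calls shared in direction over all 9560 genes measured in both sets were 32.0% of signal-array calls and 51.2% of value-table calls. Of these genes, 49 were called in opposite directions. With the replicate block, GARS1 was called lower on the signal arrays (limma adjusted p = 0.0218) and higher in the value table (2.5e-05).

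Among 33 genes of the amino acid response, made up of the eIF2 kinases with their substrate and regulators, ATF4, and genes known to answer to ATF4, the sets also differed side by side. In the value-table set 21 of 32 measured genes rose and 0 fell (median log2 change 0.53). Of those measured on the signal arrays, 12 of 30 rose and 6 fell (median 0.08). The shares called, 65.6% and 60%, stand beside 19.5% and 31.0% of all genes. With the replicate block the counts were 22 and 0 in the value table, where 34.6% of all genes were called. On the signal arrays they were 13 and 9, beside 44.0% of all genes. ATF4 itself, read from its brightest probe, rose in both. It went from 13.30, 13.40 and 13.18 to 13.98, 13.81 and 13.83 on the value-table arrays (log2 change 0.58, limma adjusted p = 0.00182). The rise on the signal arrays was 0.26 (adjusted p = 0.0244). Another ATF4 probe, with log2 changes of 0.35 in the value table and 0.29 on the signal arrays, passed in neither (adjusted p = 0.0802 and 0.0787). With the replicate block that probe was called higher in both (0.00466 and 0.0151). A dim ATF4 probe, kept on the signal arrays only, had a log2 change of 0.01 there. DDIT3, which encodes the stress factor CHOP, rose by 0.91 on the value-table arrays and 0.57 on the signal arrays. In the same order TRIB3, a pseudokinase that restrains the response, rose by 1.05 and 0.31. NUPR1, a stress-induced regulator, rose by 1.37 and 2.05, VLDLR, a lipoprotein receptor gene, by 1.10 and 0.96, and DDIT4, an mTORC1 inhibitor, by 0.77 and 0.85.

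ASNS, which makes asparagine and is a standard readout of this response, rose in the value table and did not pass in the signals, a difference that was not tested. It went from 12.53, 12.46 and 11.89 to 13.84, 13.85 and 13.40 there, a rise of 2.65-fold (SE 0.17 in log2 units, limma adjusted p = 0.00159). Its signal-array levels went from 12.24, 12.23 and 12.15 to 12.24, 12.26 and 11.75 (log2 change -0.12, adjusted p = 0.51). CTH, an enzyme of cysteine synthesis, rose 2.37-fold on the value-table arrays and had a log2 change of 0.13 on the signal arrays (adjusted p = 0.4). The arginine and lysine transporter SLC7A1 rose 2.22-fold on the value-table arrays (adjusted p = 0.000506) and fell 1.28-fold on the signal arrays (adjusted p = 0.00367). The cystine transporter SLC7A11 likewise rose by 0.54 (adjusted p = 0.00416) and had a fall of 0.77 on the log2 scale (adjusted p = 0.0245).

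**Figure D4:**
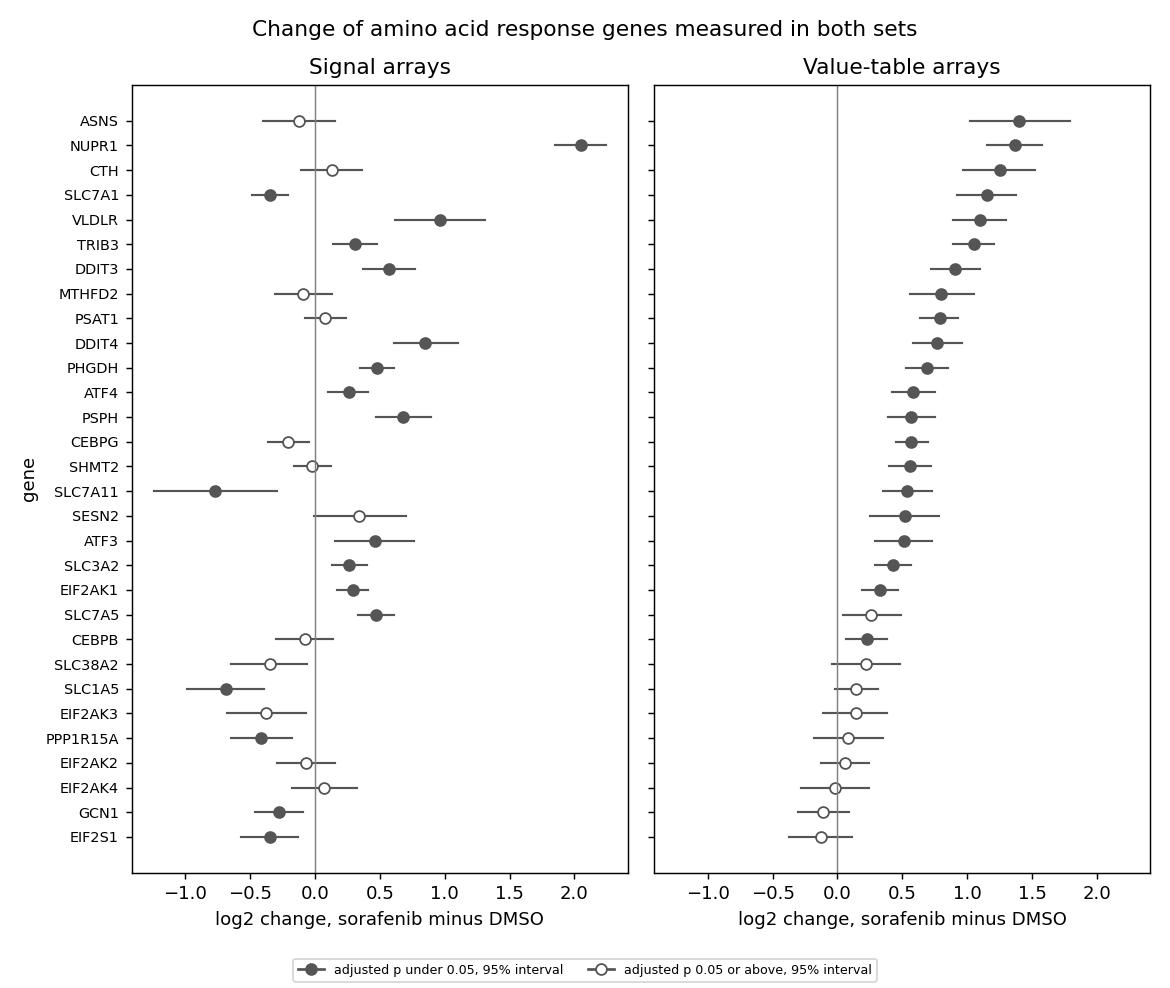
Log2 change (sorafenib minus DMSO, x axis) with its 95% interval for the 30 amino acid response genes measured in both sets (y axis), on the signal arrays (left) and the value-table arrays (right); filled points passed the adjusted threshold. ASNS, at -0.12 and 1.40, and SLC7A1, at -0.35 and 1.15, differ most visibly between the panels.

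Other genes of tRNA charging, delivery and maturation moved in smaller numbers. Of 33 listed genes, 29 were measured on the signal arrays, where 0 rose and 6 fell (median log2 change -0.11). Of those in the value-table set, 2 of 28 rose and 2 fell (median -0.01), and with the replicate block the counts were 1 and 10 and then 5 and 6. Without the block the shares called, 20.7% and 14.3%, were below the 31.0% and 19.5% of all genes. With the block, 44.0% of all genes were called on the signal arrays, 22.5% higher and 21.5% lower. In the value table that share was 34.6%, 19.1% higher and 15.5% lower. MTFMT, which formylates the mitochondrial initiator tRNA, fell by 0.52 on the signal arrays (limma adjusted p = 0.0178), TRMT10C, a subunit of mitochondrial RNase P, by 0.47 (0.0103) and TRNT1, which adds the CCA end, by 0.36 (0.0247). ELAC2, the nuclease that trims the 3′ end of tRNA precursors, fell in both sets, by 0.41 (0.0151) and 0.36 (0.0157). TRMU, which thiolates mitochondrial tRNAs, fell by 0.41 on the value-table arrays (0.0127), and on the signal arrays had a log2 change of -0.49 (0.0504, or 0.00806 with the replicate block). The value-table level of DTD1, which removes D-amino acids from tRNA, rose by 0.23 (0.0383) and that of TSEN15, a tRNA splicing subunit, by 0.26 (0.0366).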

How the data were processed

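Sample titles gave each array its group and number. The authors deposited probe signals as intensity on a linear scale, with a detection p-value beside it, per the file headers. Scanner software: not given in the sources used here. Values of the other table the authors deposited were read as log2, since they run from 6.08 to 15.85. Its 6 columns share 1 median, 7.1, and how the table was made is unknown. For the signals, limma's neqc corrected background and set quantiles equal (limma 3.58.1, R 4.3.3, offset 16). A probe was kept if at least 3 arrays had a detection p under 0.01 (17115 of 47323). In the value table it was kept if at least 3 columns exceeded 7.40, the log2 level which that threshold has in uncorrected signals (17122). Differences were tested with limma (lmFit, eBayes with trend, group only, two-sided, Benjamini-Hochberg over all kept probes). Gene names came from the platform annotation, and the brightest kept probe stood for its gene. Deviations of same-numbered DMSO and sorafenib arrays correlated at 0.321 to 0.385 on the signal arrays and 0.317 to 0.666 in the value table. Those of differently numbered arrays reached 0.0331 and 0.294. The main calls ignore this pairing. A second fit took the numbers as pairs (replicate block) and is given where it changes the call of a member or another gene printed here. Element matches are descriptions. The fit was tested on simulated data. Members, lists and tests were chosen with earlier results of these data known. All members are accounted for, with every array printed for those called in either set; from each list up to 4 of the largest called changes per set are named, with ATF4, DDIT3, ASNS, TRIB3 and CHAC1 besides. Promoters are shown for WARS1 and MARS2 by the rule of largest change, and the element windows and the HARS1 promoter were chosen after values were seen.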

Additional observations from a re-analysis of the deposited data

Results flagged for a closer look

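IARS1, the isoleucine enzyme, had all 3 sorafenib arrays below all DMSO arrays on the signal arrays (log2 change -0.18) and all 3 above on the value-table arrays (log2 change 0.37). The difference between the sets was not tested, and the change on the signal arrays did not pass limma's adjusted threshold.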

How the results depend on the processing

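Of the 11 members called on the signal arrays, AARS1, FARSA, HARS1, VARS1, MARS2 and YARS2 kept direction and call in all 15 alternative fits, and of the 14 called in the value table, AARS1, EPRS1, GARS1, IARS1, WARS1 and YARS1 did so in all 11; no called member changed sign, while some uncalled ones did, such as FARSB in the value table (-0.31 to 0.15). On the signal arrays, cytosolic genes that fell numbered 7 with the replicate block and 3 to 5 in fits that left out 1 array. Mitochondrial genes that rose there numbered 0 without the intensity trend, 2 with array weights or the replicate block and 0 to 1 without 1 array. Those that fell numbered 2 without a filter on dim probes, 3 without the trend and 2 to 4 without 1 array. In the value table, cytosolic genes that rose numbered 6 to 10 and those that fell 1 to 3 without 1 array, and mitochondrial genes that fell numbered 0 without the filter and 0 in each fit without 1 array. Over all probes, 4582 were called on the signal arrays and 2950 to 4344 without 1 array. For the value table the calls numbered 3038, 5456 with the replicate block and 1560 to 2494 without 1 array. Apart from the calls given with the block in the report, the block changed no member's call. The causes were not tested beyond fewer arrays or other tested probes. The number of arrays, 3 per group, limits precision.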

Other observations

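CHAC1, a glutathione-degrading enzyme that answers strongly to ATF4, was not kept in either set and so not tested. In the value table it lay at 6.91, 7.04 and 6.78 with DMSO and at 8.04, 7.80 and 7.32 with sorafenib, with all sorafenib arrays above, and on the signal arrays it was detected on 0 of 6. The TGATGNAA element stood in a promoter of 8 of 28 amino acid response genes with an entry, beside 4.46% of all genes. The 8 were ASNS, ATF3, CEBPG, CHAC1, PPP1R15B, SLC1A5, SLC3A2 and SLC7A1. Of these, PPP1R15B and SLC1A5 did not pass in the value table, and SLC1A5 fell on the signal arrays (limma adjusted p = 0.00467). TRIB3, DDIT3, CTH and VLDLR, which rose in the value table, had no match. SARS1, WARS1 and EPRS1, which rose in the value table, had no match in the windows examined.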
